A study of Caenorhabditis elegans with 2 samples.

Results

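The genes of fibroblast growth factor (FGF) signalling in the nematode Caenorhabditis elegans are the ligand genes egl-17 and let-756 and the receptor gene egl-15. They are 3 of 19973 nuclear protein-coding genes, and their names were chosen by a measured value, the strong peak at egl-17, so what follows is a description without tests. CEH-24, a homeodomain factor of the NK-2 class, was studied in strain OP673 by ChIP-seq, in which DNA bound by a protein is immunoprecipitated and sequenced. Its worms carry the unc-119 (tm4063) III mutation and the transgene wgIs673, from which CEH-24 is made with GFP and FLAG at its C terminus. An antibody to GFP was used on late embryos, whole and with the sexes pooled, collected 5 h after egg bleaching, in 2 biological replicates of 1 group. No second condition was measured, and the cells in which the tagged protein was present are not separated from the rest of the embryo.

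FGFs are secreted proteins that bind receptor tyrosine kinases at the cell surface, and the activated receptor signals through the Ras and MAP kinase cascade. In C. elegans, egl-17 encodes the FGF that attracts the sex myoblasts to the gonad, let-756 encodes the FGF needed for larval growth, and egl-15 encodes their receptor. The sex myoblasts arise from the M mesoblast in larvae and form the vulval and uterine muscles, and ceh-24 is known to be expressed in vulval muscle. The cells that migrate under egl-17 are thus not yet born in the embryos used here.

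Every peak whose summit lay inside one of the 3 genes or within 3000 bp of it was taken from the relaxed list of each replicate (30000 and 28119 peaks), from the pooled list of both (30000 peaks) and from the optimal list (276 peaks, the 276 highest of the pooled list). The signal value is the authors' own score of a peak, and its scale differs between lists. Ranks run from 1 for the highest signal in a list. Few of their entries had a q-value no higher than 0.05, namely 420 pooled peaks, 228 of replicate 1 and 729 of replicate 2. No read total was used, and the depth is unknown.

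The strong peak at egl-17 lay over a tRNA gene in one of its introns. The tRNA gene F38G1.t2 (WBGene00023035), annotated as tRNA-Asp by RefSeq, occupies X 489868 to 489939 on the minus strand, against the direction of egl-17. It sits in the intron of 712 bp between exons 2 and 3 of transcript F38G1.2.1, 21 bp after a coding exon and 619 bp before the next exon. The pooled peak ran from 489880 to 490013, and its summit at 489935 fell inside the tRNA gene, 4 bp from its 5′ end. The right part of the peak is shown on the plus strand of ce11 at chrX:489928-490013, because it joins the tRNA gene to intron sequence found once in the genome. The 12 capitals mark the 5′ end of the tRNA gene, and the 74 bases after them are egl-17 intron.

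egl-17 peak: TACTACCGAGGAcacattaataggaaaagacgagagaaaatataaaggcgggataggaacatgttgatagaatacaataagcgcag

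The rest of the tRNA gene is repeated in the genome and is not printed. Each of its 37 possible 36-mers occurred more than once, up to 26 times, while in the 100 bp on each side all 65 occurred once. The sources used here do not say how reads of the repeated part were assigned, and its bearing on the signal was not tested. The gene holds the B box, the internal promoter element bound by an RNA polymerase III transcription factor, at bases 52 to 60, with the letters GTTCAATTC. The pooled peak of 134 bp was much shorter than the list's median of 496 bp. In the replicate lists it was not short, with 470 bp in replicate 1 and 544 bp in replicate 2, the median width of each list. Only 25 pooled peaks were 300 bp or shorter, 24 of them were in the optimal list, and 6 had a tRNA gene within 250 bp of the summit. Of all 276 optimal peaks, 95 had a tRNA gene that near.

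Both replicates carried this peak among their highest. The signal value was 121 in replicate 1, at rank 38 (q = 0.0209), and 91.3 in replicate 2, at rank 75 (q = 0.00662). In the pooled list it was 208, at rank 55 (q = 0.00304). The replicate 1 summit lay 3 bp inside the tRNA gene from its 5′ end and the replicate 2 summit 41 bp inside, so that all 3 summits fell within the tRNA gene. Measured from egl-17, the pooled summit was 161 bp downstream of the nearest annotated start, that of transcript F38G1.2.2, and 250 bp downstream of the gene's first base.

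The remaining peaks around egl-17 (WBGene00001185, X 489685 to 492318, plus strand) all ranked below the middle of their lists. The pooled list held 3 more, between 1229 and 1814 bp upstream of the gene, with signals of 34.1, 29.0 and 26.4 at ranks 15711, 23328 and 28128. Replicate 1 held 2 more, at ranks 15344 and 20164, and replicate 2 held 4 more, at ranks 17008 to 27060. Their q-values were 0.825 or higher. The intergenic region upstream of egl-17 thus held only low-ranked peaks in all 3 lists.

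A second tRNA gene lies near egl-17. F38G1.t1 (WBGene00023034), annotated as tRNA-Thr, lies 1799 bp upstream of egl-17 (X 487815 to 487886, plus strand) and 1981 bp from F38G1.t2. Both genes are 72 bp long, they match at 32 positions, and each has its B box at bases 52 to 60, where F38G1.t1 has GTTCAATCC. The highest pooled signal within 250 bp was 208 at F38G1.t2 and 26.4 at F38G1.t1. The replicate 1 list had a peak of 19.8 (rank 20164) within 250 bp of F38G1.t1, and replicate 2 had no peak whose summit came that near. F38G1.t2 was chosen with its peak known, and only 99 of all 612 tRNA genes (16.2%) had an optimal peak within 250 bp. Nothing is therefore read from the difference between these neighbours. The 36-mers of F38G1.t1 also each occurred more than once, up to 9 times, against up to 26 times for F38G1.t2. What this contributed to the signals was not tested.

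**Figure D1:**
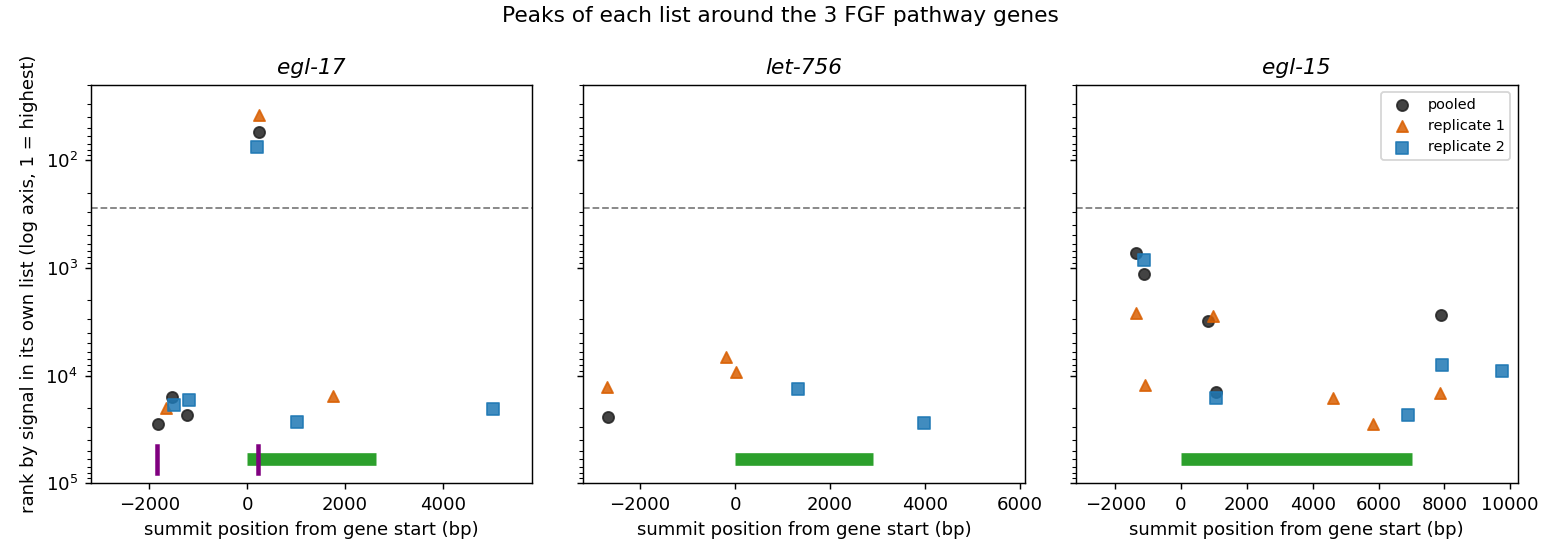
Summit position from the first base of each gene (x axis, bp) and rank by signal within its own list (y axis, log scale, 1 at the top) for peaks of the pooled list and both replicate lists. Green bars are the genes, purple lines the tRNA genes F38G1.t1 and F38G1.t2, and the dashed line is rank 276, the last optimal peak. Only the peak over F38G1.t2 lies above the line, in all 3 lists.

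The sequence of F38G1.t2 is shared by many tRNA genes, and the copy inside egl-17 carried the highest signal among them. RefSeq annotates 27 nuclear tRNA-Asp genes, of which 21 are identical to F38G1.t2 over all 72 bases. A pooled peak had its summit within 250 bp of 14 of these 21, with signals from 42.2 to 208 and a median of 81.0, and the other 7 had none. The next highest copies, named after their values were seen, were F28F8.t3 in acr-18 (122), T14F9.t1 (115.2) and F59C12.t2 in F59C12.3 (114). An optimal peak lay at 4 of the 21 (19.0%, exact binomial 95% interval 5.45 to 41.9), against 99 of all 612 tRNA genes (16.2%). It lay at 3 of the 10 identical copies on chromosome X (6.67 to 65.2%) and at 1 of the 11 on autosomes (0.230 to 41.3%). The 4, and the 3 on chromosome X, include F38G1.t2 itself, which was chosen with its peak known and defines the set. These intervals cover counting error only, and nothing is read from the shares.

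F38G1.t2 also had the first place in each replicate list. The pooled peak by which it was chosen derives from both replicates, so this place is not independent of that choice. In replicate 1, where 16 identical copies had a peak, F38G1.t2 had 121 and the next copy 65.8 (rank 186), with a median of 29.3. In replicate 2, where 12 had one, it had 91.3 and the next copy 65.7 (rank 197), with a median of 52.2. The copy in second place differed, being F28F8.t3 in replicate 1 and T14F9.t1 in replicate 2. What the assignment of reads from identical copies contributed to these differences was not tested.

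**Figure D2:**
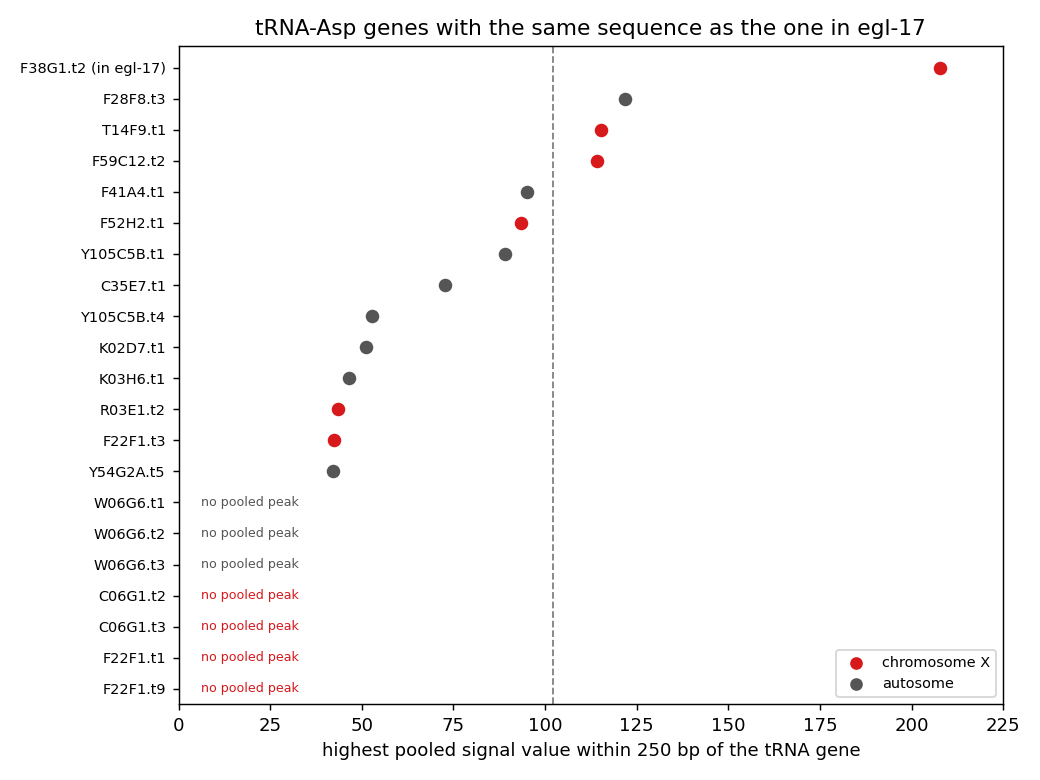
Highest pooled signal value with a summit within 250 bp (x axis) for the 21 tRNA-Asp genes identical to F38G1.t2, red on chromosome X and grey on autosomes. The dashed line is the lowest optimal signal, 102. The copy in egl-17 lies at 208, the next at 122, and 7 copies have no pooled peak.

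Of the tRNA genes inside a protein-coding gene, as in egl-17, an optimal peak lay at 46 of 290 (15.9%, exact interval 11.9 to 20.6) and of the other tRNA genes at 53 of 322 (16.5%, 12.6 to 21.0). Among those on the strand opposite to the host, as F38G1.t2 is, it was 22 of 123 (17.9%, 11.6 to 25.8), and among those on the same strand 24 of 167 (14.4%, 9.43 to 20.6). The intervals cover counting error only and treat tRNA genes as independent, though neighbouring genes can share a peak. Nothing is read from these shares. Among the 95 optimal peaks with a tRNA gene within 250 bp the one in egl-17 had the 14th highest signal, with a median of 142 over the 95. On chromosome X it was the 10th of 54, between 398 and 105.

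The second ligand gene, let-756, had no peak of rank or replication like that. The gene (WBGene00002881, III 6407129 to 6410033, plus strand) had 1 pooled peak in its window, with a signal of 28.4 at rank 24324 (q = 0.914), 2681 bp upstream of its start. Replicate 1 had a peak there of 23.4 at rank 12774, and no replicate 2 peak overlapped it. Replicate 1 also had summits 199 bp upstream of the start (28.0, rank 6703) and 24 bp downstream of it, in a coding exon (25.8, rank 9169). Replicate 2 had instead a summit in an intron, 1335 bp from the start (22.0, rank 13221), and one in the coding sequence of the neighbouring gene C05D11.5 (15.8, rank 27736). No summit of one replicate lay at a summit of the other, and no tRNA gene lay within 250 bp of any. The q-values ran from 0.735 to 0.957.

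The receptor gene egl-15 had peaks of intermediate rank upstream of its start. The gene (WBGene00001184, X 11016400 to 11023421, plus strand) has 13 annotated transcripts, and 5 pooled peaks fell in its window. The highest had its summit at 11015048, 1352 bp upstream of the gene, with a signal of 73.7 at rank 733 (q = 0.118). The next was at 11015279, 1121 bp upstream, with 66.4 at rank 1132 (q = 0.213). Both are intergenic, and egl-15 has the nearest annotated start. Replicate 1 placed its higher summit at the first of the pair (11015047, signal 34.7, rank 2614, q = 0.522) and a lower one near the second (11015294, 23.6, rank 12355). Replicate 2 had 1 peak over the pair, nearer the second (11015265, 43.1, rank 849, q = 0.0654). Both replicates therefore ranked this upstream region first within the egl-15 window, and neither reached a q-value of 0.05 there. In replicate 1 the lead was narrow, with 34.7 against 34.2 (rank 2793) for a peak in an intron of egl-15.

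The sequences at the upstream summits of egl-15 are shown with that of let-756, to search for the NK-2 class site away from tRNA genes. No tRNA, snoRNA, snRNA or rRNA gene lay within 250 bp of these summits, and other kinds of RNA gene were not searched. Each line gives a pooled summit with 100 bases to either side, plus strand of ce11, at chrX:11014948-11015148, chrX:11015179-11015379 and chrIII:6404348-6404548. Capitals mark the core AAGTG of the NK-2 class site on either strand.

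egl-15 first upstream peak: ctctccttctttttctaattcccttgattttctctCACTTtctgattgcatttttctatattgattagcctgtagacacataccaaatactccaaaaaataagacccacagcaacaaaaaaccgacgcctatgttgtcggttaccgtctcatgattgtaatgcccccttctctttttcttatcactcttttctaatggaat

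egl-15 second upstream peak: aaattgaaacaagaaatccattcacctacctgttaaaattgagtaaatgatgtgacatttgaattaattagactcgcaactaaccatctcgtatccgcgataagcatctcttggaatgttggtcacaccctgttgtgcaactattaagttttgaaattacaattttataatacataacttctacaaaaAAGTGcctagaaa

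let-756 pooled peak: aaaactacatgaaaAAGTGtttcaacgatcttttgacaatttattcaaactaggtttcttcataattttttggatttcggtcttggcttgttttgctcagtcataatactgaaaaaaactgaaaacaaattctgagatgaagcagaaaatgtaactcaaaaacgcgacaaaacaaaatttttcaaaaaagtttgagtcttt

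Each of these 3 windows held the core once. Over the 10 pooled peaks of the 3 genes, the core was present in these 3 windows (36.04% of all 30000 pooled windows hold it), and the full site TNAAGTG was present in 0 of 10 (9.08% of all windows). A full site lay 118 bp from the second egl-15 summit, just outside its window. Replicate windows held it at 2 low-ranked peaks in the 3′ UTR of egl-15, at rank 28118 in replicate 1 and rank 23211 in replicate 2. The core was absent from the window at the egl-17 tRNA gene. The motif GTTCNANNC, a short form of the B box, was found in the windows of 2 of the 10 peaks, those at F38G1.t2 and F38G1.t1, against 7.14% of all windows. Both summits lay inside these tRNA genes, whose own B box is the match, so this count is no separate observation. The core is contained in the full site, and both strands were searched.

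The other egl-15 peaks were lower. One summit lay in an intron 834 bp from the gene start (53.2, rank 3141), one in a coding exon at 1062 bp (35.4, rank 14258) and one beyond the 3′ end (54.9, rank 2747). Both summits inside the gene were overlapped by the same replicate peaks, with 34.2 (rank 2793) in replicate 1 and 20.4 (rank 16298) in replicate 2. The peak beyond the 3′ end was overlapped by one with 22.4 (rank 14537) in replicate 1 and one with 25.8 (rank 7943) in replicate 2. None of the 4 RNA gene kinds searched (tRNA, snoRNA, snRNA, rRNA) lay within 250 bp of an egl-15 or let-756 summit in the pooled or replicate lists.

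**Figure D3:**
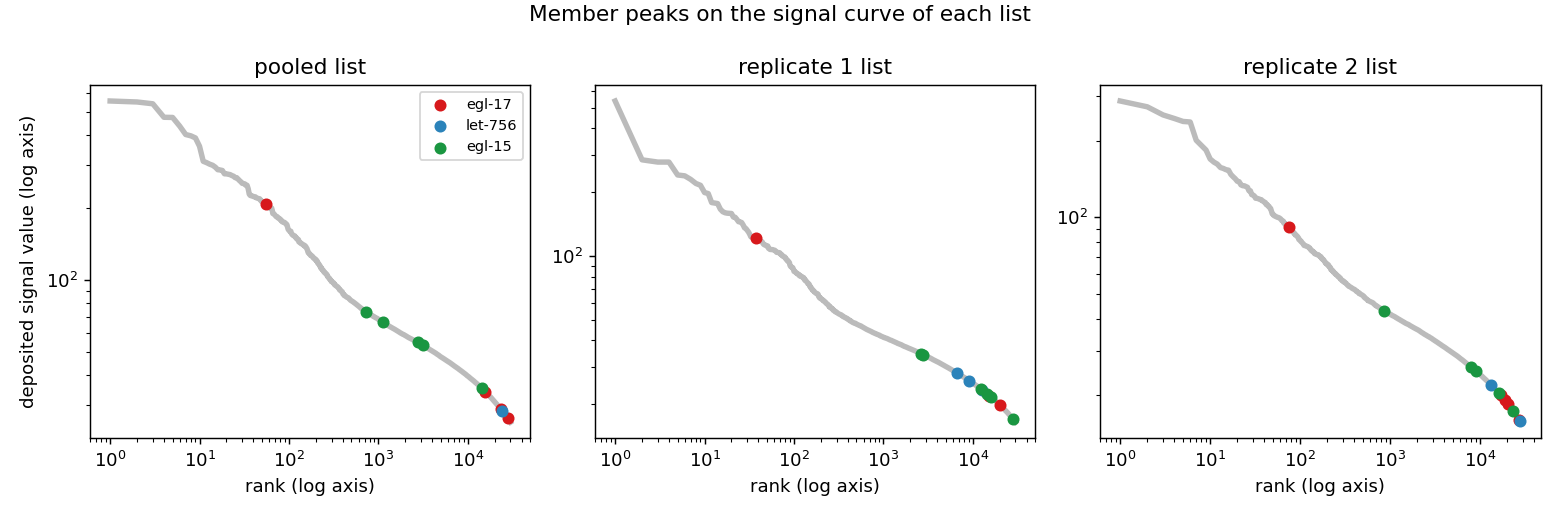
Signal value against rank, both on log axes, for the pooled list and each replicate list, with the peaks of the 3 genes as coloured points on the grey curve of all peaks; some points overlap at high ranks. The egl-17 peak stands at 208 in the pooled list, 121 in replicate 1 and 91.3 in replicate 2, and the highest egl-15 peaks at 73.7, 34.7 and 43.1.

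By their highest pooled peak, the genes stood in the order egl-17, egl-15, let-756, and both replicate lists gave that order. The highest signal was 121 at egl-17, 34.7 at egl-15 and 28.0 at let-756 in replicate 1, and 91.3, 43.1 and 22.0 in replicate 2. The first place of egl-17 rests on the peak over F38G1.t2, by which the gene was chosen, so nothing is read from it. Its next highest signals were 34.1 in the pooled list, 21.96 in replicate 1 and 20.04 in replicate 2. These lay below egl-15 in each list and below let-756 in both replicates. The 2 replicates give no test of this order, and egl-15 and let-756 were closer in replicate 1 than in replicate 2. Of all 19973 genes, 135 (0.676%) had a higher pooled peak in the same window than egl-17, 1334 (6.68%) a higher one than egl-15, and 15740 (78.8%) a higher one than let-756. A longer gene has a wider window, and egl-15, at 13.0 kb with its flanks, was wider than egl-17 (8.63 kb) and let-756 (8.91 kb). Pooled peaks per kb were 0.463 at egl-17, 0.112 at let-756 and 0.384 at egl-15, against 0.299 in the nuclear genome. The low-ranked pooled peaks upstream of egl-17 each overlap the next, and some egl-15 peaks overlap in pairs. They were counted separately, and nothing is read from these densities.

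Of the 3 genes, 1 had an optimal peak and 1 had a pooled peak with a q-value of 0.05 or less, which was the same peak. Over all protein-coding genes the shares were 2.91% for an optimal peak (581 genes) and 4.21% for the q-value. Nothing is read from the members' count, since egl-17 was chosen with its peak known. With peaks less than 250 bp from those 4 RNA gene kinds left out, 0 of the 3 genes had an optimal peak, against 1.52% of all genes. This loss was common: 278 of the 581 genes (47.8%) had an optimal peak only through such peaks. The genes nearest to egl-17 by the signal of their highest peak, over this 1 condition, were sor-3 (210.5) and fli-1 (210.6) above it, both with the summit inside a tRNA gene, and xnd-1 and madf-11 below it, which share a peak (205) 5 bp from a snoRNA gene.

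Genes known to act with the FGFs and their receptor were described in 3 lists, beside the 2.91% of all genes with an optimal peak. In the FGF signalling list of 14 genes, which holds the adaptor sem-5, the exchange factor sos-1, Ras (let-60), Raf (lin-45), the kinases mek-2 and mpk-1 and the receptor phosphatase clr-1, 0 of 14 had an optimal peak. A limit of 3 counts allows a share of up to 21.4% there, and the exact binomial 95% upper limit is 23.2%, so the share of all genes lies within both. The highest pooled signals within this list were 61.3 at let-60, from a peak nearer the start of ZK792.12, and 57.2 at sos-1; this pair was named after the values were seen. The list of 11 co-receptor and heparan sulfate genes, with the Klotho relatives klo-1 and klo-2 and the syndecan sdn-1, also had 0 with an optimal peak, for which the limit of 3 counts is 27.3% and the exact upper limit 28.5%, again above the 2.91% of all genes. One of them, rib-1, which encodes a heparan sulfate polymerizing enzyme, had a pooled peak with a q-value of 0.0474 (IV 11578856 to 11579351, intronic, 312 bp downstream of the start, signal 86.5, rank 412). It had 57.2 (rank 255) in replicate 1 and 24.9 (rank 9026) in replicate 2.

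Of 9 genes for sex myoblast migration and cell guidance, unc-73 had an optimal peak. It lay at I 4001191 to 4001686 with the summit in a coding exon, 30300 bp from the start of a gene 32440 bp long, with a pooled signal of 103 at rank 274 (q = 0.0201). The nearest annotated start was that of F55C7.2, with the summit 3996 bp upstream of it. The signal was 58.2 (rank 245) in replicate 1 and 38.04 (rank 1574) in replicate 2, and no tRNA gene was near. The next were unc-5, a netrin receptor (71.6, rank 817), and unc-71, an ADAM protein of the sex myoblast pathway (67.3, rank 1077). Over the 3 lists, 1 of 34 genes had an optimal peak (2.94%, exact interval 0.0744 to 15.3), against 2.91% of all genes, and 2 of 34 (5.88%) had a pooled q-value of 0.05 or less, against 4.21%. The median of the highest pooled signal was 48.8 over the 33 listed genes with a peak and 43.0 over the 16819 such genes of the genome. Gene length was not matched in these comparisons, and a longer gene has a wider window. Pooled peaks per listed gene ran from 0 to 17, and the count of 17 was reached at genes 32348 and 37136 bp long. Over all genes the median was 2 and the quartiles were 1 and 4. A range and a median are unlike measures, so nothing is read from these counts.

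**Figure D4:**
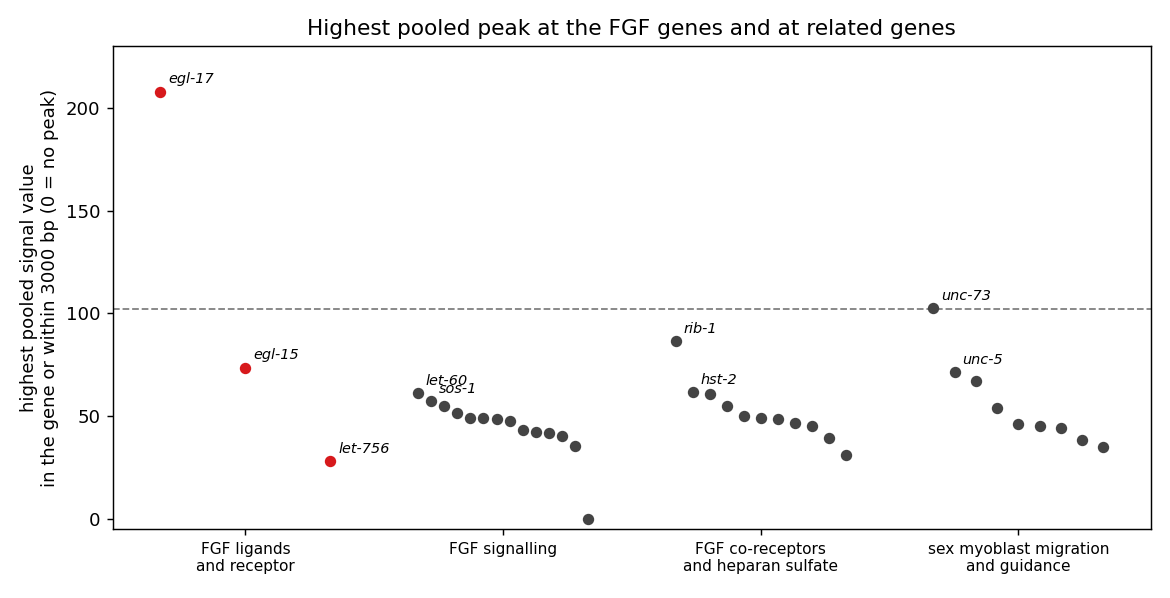
Highest pooled signal value in each gene or within 3000 bp (y axis, 0 where no peak was listed) for the 3 FGF genes and for the genes of 3 related lists, each sorted from high to low. The dashed line is the lowest optimal signal, 102. Above it are egl-17 at 208 and unc-73 at 103.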

How the data were processed

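ChIP-seq peak lists of CEH-24-GFP in 2 replicates of late embryos were used on genome build ce11, which is assembly WBcel235 of the reference. Notes deposited with the lists call the replicate and pooled lists input for IDR, the irreproducible discovery rate procedure, derived from read alignments and 1 further file common to all 3, whose kind the notes leave unnamed, and the optimal list derived from all 3. The signal value of each peak was deposited by the authors and used unchanged, and the deposited −log10 q-value was turned into a q-value; both columns were identified by the narrowPeak column order. The sources used here name no aligner or peak caller. Genes came from Ensembl release 115, tRNA names and sequence from RefSeq. Summits are 1-based. Replicate peaks were matched to pooled peaks by 1 bp of overlap. Motifs were sought on either strand up to 100 bp from the summit and 36-mers counted over the whole genome in Python 3.11.15 (numpy 2.4.6, scipy 1.17.1, matplotlib 3.10.9). The window and motif searches were tested on simulated data. Alternatives covered the window, the call, each replicate alone and the RNA gene distance.

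The members, the gene lists and the alternatives were chosen with earlier results of these data known. Genes were named by rule: the 3 members, genes at their highest peaks, listed genes with a called peak or among the 4 highest, and the 2 genes next above and below egl-17 in signal. Outside this rule, let-60, sos-1 and the tRNA-Asp copies next to that in egl-17 by signal were named after their values were seen, and 8 listed genes are named without values to say what the lists hold. ZK792.12 and F55C7.2 are named for having the nearest start to a peak of a listed gene. Lists on ce10 were not analysed here.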

Additional observations from a re-analysis of the deposited data

How the results depend on the processing

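With 1000 bp, 10000 bp, the q-value of 0.05, a stricter list (the higher-signal optimal peaks, split at the median) or either replicate alone in place of the main choice, 1 of the 3 FGF genes had a called peak, egl-17. Without peaks near the 4 RNA gene kinds it was 0. Among listed pathway genes the main count of 1 became 3 with 10000 bp, 2 with the q-value, 0 in the stricter list, and 0 to 2 with a single replicate. Over all genes the 581 became 357 with 1000 bp, 1276 with 10000 bp, 301 in the stricter list and 303 without the RNA gene peaks. With 1000 bp and 10000 bp the pooled peaks numbered 1 and 8 at egl-17, 0 and 6 at let-756, and 3 and 12 at egl-15. Single replicate lists gave 3 to 5 at egl-17, 2 to 3 at let-756 and 5 to 6 at egl-15. The rank of the highest pooled peak was 24324 at let-756, against 12774 in replicate 1, also by summits within 100 bp, and none in replicate 2. At egl-15 it was 733, against 849 to 2614 in the replicates, and by summits within 100 bp 2614 in replicate 1 and none in replicate 2. The full NK-2 class site was at 1 of 10 peaks with the wider window or the whole peak. The share of all pooled peaks was not counted for these 2 settings, so nothing is read from them. The core AAGTG was at 3 of 10. The tRNA gene at the egl-17 summit was the same with 100 or 500 bp. The depth is unknown, and signal scales differ between lists.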
